A study of Mus musculus with 10 samples.

Results

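The 10 genes described here are Xcr1, Clec9a, Wdfy4, Batf3, Irf8, Irf4, Flt3, Zbtb46, Itgae and Siglech, a set of dendritic cell lineage genes picked by name from the 32285 genes in the matrices. They were followed in immune cells sorted as CD45+ from SW1 melanoma tumors, grown subcutaneously in the flank of female C3H/HeJ mice aged 4 to 6 weeks. Droplet-based single-cell RNA sequencing gave 5 gene expression libraries: control day 0, from a cohort killed before treatment, control day 7 and control day 21, from mice given control water ad libitum, and L-fuc day 7 and L-fuc day 21, from mice given water supplemented with L-fucose (L-fuc), a dietary sugar. All mice were of 1 inbred strain. By the labels, treatment began after 10 days of tumor growth, while the paper's methods for single-cell sequencing give a later day. Each library was a pool of mice, so each condition had 1 library, no condition had a replicate, and the ratios given below compare libraries without a test. The labels gave the L-fuc concentration as 100 mM in one field and 100 nM in another and differed on the size of the cohorts.

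Dendritic cells arise from bone marrow progenitors that depend on Flt3, the receptor tyrosine kinase for Flt3 ligand. Conventional type 1 dendritic cells (cDC1) take up dead cells and present their antigens to CD8 T cells; they need the transcription factors Irf8 and Batf3 and carry the chemokine receptor Xcr1, the dead cell receptor Clec9a and, in tissues, the integrin alpha chain CD103 encoded by Itgae. Type 2 cells (cDC2) use Irf4, plasmacytoid dendritic cells (pDC) carry Siglech and secrete type I interferon, and Zbtb46 marks the conventional lineage. Several of these genes are also used elsewhere: Irf8 in B cells and macrophages, Irf4 in plasma cells and activated T cells, and Itgae in tissue and regulatory T cells.

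Barcodes with at least 500 genes and at most 10% mitochondrial unique molecular identifiers (UMIs) were sorted into gates by their counts. Barcodes with a UMI of Ptprc, the gene for CD45, were called C1q-low when C1qa, C1qb and C1qc, the complement genes of tumor macrophages, summed to at most 2 UMIs, and C1q-high when they summed to at least 10. T cells had at least 2 UMIs of Cd3e, Cd3d and Cd3g together and overlapped both of those gates, and tumor cells had a UMI of Sox10, a melanocyte lineage factor, and none of Ptprc. Values for 5 libraries always begin with day 0, followed by control before L-fuc at day 7 and then control before L-fuc at day 21. In this order the C1q-low gate held 483, 2695, 2023, 160 and 133 barcodes and the C1q-high gate 273, 1215, 1316, 529 and 283. The T cell gate held 477, 1497, 1820, 67 and 50, and the tumor cell gate 265, 8996, 2986, 483 and 321. Levels are UMIs of a gene per 1000000 UMIs of the gate (CPM), shares are percentages of barcodes with at least 1 UMI, and parentheses after them hold exact 95% intervals (Poisson for levels, Clopper-Pearson for shares, conditional for ratios). The intervals cover counting error only, not the spread between mice.

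The libraries held 1428 to 20741 barcodes and 14439185 to 119047810 UMIs. Against the CD45+ label of the sort, the tumor cell gate was the largest of the 4 in control day 7, L-fuc day 7 and L-fuc day 21. Sox10 was also found in 0.621%, 47.0%, 18.8%, 6.25% and 9.77% of C1q-low barcodes. Within the tumor cell gate, Mlana, Pmel and Dct, the pigment cell genes, had 0 to 5, 3 to 44 and 2 to 70 UMIs per library, whereas Sparc stood at 2980 to 3876 CPM. Lymphocyte markers were found in 87.6%, 43.2%, 71.9%, 49.4% and 52.6% of C1q-low barcodes, and T cell counts of at least 2 Cd3 UMIs in 64.8%, 18.0%, 41.4%, 28.8% and 18.0% of them. Median depth per C1q-low barcode was 4363, 3273, 3748, 3083.5 and 4349 UMIs against 15370, 7178, 9825, 10880 and 16661 in C1q-high, 4615 to 10904.5 in T cells and 7411.5 to 23424 in tumor cells. Control day 7 and L-fuc day 7 had 433 barcode sequences in common. Results for the C1q-low gate are therefore also given after leaving out lymphocytes and Sox10-positive barcodes, which kept 58, 661, 345, 73 and 53 barcodes. To show where the UMIs of a gene lay, the C1q-low barcodes were also split so that each counted once, taken in the order Sox10 (1672 barcodes), at least 2 Cd3 UMIs (1488), at least 2 UMIs of Cd79a and Cd79b (150), Ncr1 or Klrb1c (687), 1 Cd3 UMI (307) and the 1190 that remained. The parts are called Sox10, T cell, B cell, NK and remaining parts below, and a barcode that met several of these conditions is only in the first.

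All 10 genes are annotated as protein coding in GRCm38, the build the labels call mm10. On the plus strand lie Clec9a (chr6:129408862-129424763), Batf3 (chr1:191097847-191108945), Irf8 (chr8:120736358-120756694), Irf4 (chr13:30749226-30766976), Itgae (chr11:73090583-73147446) and Siglech (chr7:55768178-55778925). On the minus strand lie Xcr1 (chr9:123852315-123862029), Wdfy4 (chr14:32959547-33185508), Flt3 (chr5:147330741-147400489) and Zbtb46 (chr2:181387762-181459426). The promoter regions of Xcr1 and Clec9a, the surface receptors of cDC1, and of Zbtb46, the gene with a tumor cell signal described further on, are shown as the 150 bases before the RefSeq transcript start (GRCm38.p6), read 5′ to 3′ on the strand of the gene. They lie at chr9:123862030-123862179 on the minus strand for Xcr1, chr6:129408712-129408861 on the plus strand for Clec9a and chr2:181424389-181424538 on the minus strand for Zbtb46, where the RefSeq start falls inside the annotated span of the gene. Capitals mark a match to TGANTCA, the letters bound by AP-1 and by Batf factors, here running on into the Irf side of the composite element shared by Batf and Irf proteins.
Xcr1: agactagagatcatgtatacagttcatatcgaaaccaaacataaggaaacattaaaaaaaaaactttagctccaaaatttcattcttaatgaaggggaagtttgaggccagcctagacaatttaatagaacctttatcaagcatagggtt
Clec9a: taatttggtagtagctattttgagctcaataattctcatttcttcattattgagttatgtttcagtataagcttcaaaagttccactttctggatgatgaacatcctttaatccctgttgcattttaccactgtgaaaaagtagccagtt
Zbtb46: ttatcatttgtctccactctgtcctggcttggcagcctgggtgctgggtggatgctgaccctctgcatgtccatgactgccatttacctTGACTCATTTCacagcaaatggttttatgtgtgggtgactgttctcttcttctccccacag
Promoters of 9 of the 10 genes were in the RefSeq table, 10 promoters in all, each spanning 250 bases before to 50 after the start. On either strand, TGANTCA was in 1 of these 10 and in 7.81% of all 32851 promoters, and the same letters directly preceded by GAAA, an element that contains the first, were in the same one and in 0.125% of all. In the Zbtb46 promoter the longer match covers positions -61 to -51 from the start and the shorter one -61 to -55. None of the 10 held the interferon response type element (GAAA, any 2 bases, GAAA), the one that joins an Ets and an Irf element (GGAA, any 2 bases, GAAA), or the composite element with a spacer (TTTC, any 4 bases, TGANTCA), which were in 3.44%, 2.72% and 0.119% of all promoters. A match of letters is a description of the window, not a binding site.

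Xcr1, the receptor for the chemokine Xcl1, had 16, 15, 25, 22 and 13 UMIs in C1q-low barcodes, which were held by 5, 11, 15, 7 and 4 barcodes. Its level there was 4.98 (2.85 to 8.09), 1.08 (0.605 to 1.78), 1.93 (1.25 to 2.85), 19.1 (12.0 to 28.9) and 8.81 CPM (4.69 to 15.1). Both libraries of day 21 stood above both libraries of day 7. Of the 16 UMIs of control day 0, 15 lay in the T cell part and 1 in the Sox10 part; without lymphocytes and Sox10 the UMIs were 0, 5, 3, 22 and 13. In C1q-high barcodes Xcr1 had 48, 47, 149, 116 and 89 UMIs, or 10.9, 4.42, 9.78, 16.7 and 15.1 CPM, so 68.0% of its 660 UMIs were in C1q-high barcodes and 13.8% in C1q-low ones, where these gates held 17.4% and 13.2% of the UMIs of all genes. The share with a UMI was 0.408% to 4.38% in C1q-low and 3.05% to 12.7% in C1q-high, and after each barcode was thinned to 1000 UMIs it was 0 to 2.07% and 0.741% to 1.90%. In tumor cells, which should lack the gene, it had 2, 15, 3, 1 and 0 UMIs, at most 0.437 CPM. In C1q-low barcodes the counts were clumped, with up to 11 UMIs in 1 barcode.

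Clec9a, the receptor for exposed actin on dead cells, had 8, 34, 50, 41 and 22 UMIs in 5, 27, 34, 13 and 6 C1q-low barcodes. The level was 2.49 (1.08 to 4.91), 2.45 (1.70 to 3.43), 3.87 (2.87 to 5.10), 35.6 (25.5 to 48.3) and 14.9 CPM (9.34 to 22.6), again highest in control day 21. Its share in C1q-low was 1.04%, 1.00%, 1.68%, 8.12% and 4.51%, and the thinned share 0.626%, 0.420%, 0.454%, 5.52% and 0.813%. In C1q-high barcodes it stood at 8.37, 2.35, 6.83, 6.20 and 10.8 CPM, and tumor cells had 0, 11, 6, 0 and 1 UMIs. Over the 5 libraries there were 1.70 Clec9a UMIs for each Xcr1 UMI in C1q-low barcodes and 0.608 in C1q-high ones. That ratio was 0.5 in C1q-low of control day 0 and 1.69 to 2.27 in the other four, against 0.371 to 0.771 in C1q-high, so the order was the other way round at day 0.

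Wdfy4, which is needed for cross-presentation by cDC1, had 98, 45, 143, 117 and 83 UMIs in C1q-low barcodes. These were 30.5 (24.8 to 37.2), 3.24 (2.37 to 4.34), 11.1 (9.32 to 13.0), 102 (84.0 to 122) and 56.2 CPM (44.8 to 69.7), a range wider than that of the C1q-high gate at 20.1, 16.7, 14.0, 23.2 and 30.2 CPM. In tumor cells the gene was at most at 0.387 CPM. Wdfy4 was also present in the B cell part of the C1q-low gate: 28.0% of its 150 barcodes had it, at 34.5 CPM, against 70.6 CPM in the remaining part.

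Batf3, the AP-1 family factor of the cDC1 lineage, had most of its UMIs in C1q-high barcodes in these tumors. Its UMIs in C1q-high were 188, 316, 640, 420 and 228, at 42.5 (36.7 to 49.1), 29.7 (26.5 to 33.2), 42.0 (38.8 to 45.4), 60.6 (54.9 to 66.6) and 38.6 CPM (33.8 to 44.0). The C1q-low gate had 58, 57, 133, 39 and 26 UMIs, at 18.1, 4.11, 10.3, 33.9 and 17.6 CPM. The full C1q-low gate was therefore below C1q-high in all 5 libraries, at 0.425, 0.138, 0.245, 0.559 and 0.456 times its level. Of all Batf3 UMIs, 65.3% lay in C1q-high barcodes. Without lymphocytes and Sox10 the C1q-low level was 44.1, 12.3, 46.6, 140 and 95.5 CPM. That is above the full C1q-high gate in every library but control day 7, so the direction depended on the barcodes kept. At day 0 and in L-fuc day 7 the difference was small, at 44.1 against 42.5 and 46.6 against 42.0 CPM. Those C1q-low levels rest on 19 and 52 UMIs. Tumor cells had 0.465 to 1.90 CPM.

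Irf8 was the most abundant of the 10 genes, with 21928 UMIs in all, 47.6% of them in C1q-high and 24.6% in C1q-low barcodes. The C1q-low level was 150 (136 to 164), 79.4 (74.8 to 84.3), 256 (247 to 265), 217 (191 to 246) and 167 CPM (146 to 189). The C1q-high level was 207, 192, 278, 254 and 253 CPM, above C1q-low in each library. Without lymphocytes and Sox10 the C1q-low level was 358, 234, 542, 702 and 668 CPM, and the direction turned, with Irf8 higher in C1q-low than in C1q-high in all 5 libraries once mixed barcodes were left out of both gates. Pooled over libraries, the NK part (Ncr1 and Klrb1c encode NK cell receptors) had 663 CPM, the remaining part 406, the T cell part 152 and the B cell part 137, but the order differed between libraries. NK barcodes had 179, 257, 785, 1347 and 875 CPM, from 15, 117, 1320, 16 and 43 UMIs in parts of 21, 202, 447, 6 and 11 barcodes. At day 0 they were below the B cell part at 258 (114 UMIs, 85 barcodes). In control day 7 they were below its 412, which rests on 17 UMIs in 8 barcodes. With parts this small the order within single libraries is uncertain. The NK part alone held 1320 of the Irf8 UMIs of the gate in L-fuc day 7 against 117 in control day 7, which is 39.9% and 10.6% of the gate's Irf8 UMIs. Tumor cells had 11.6, 14.3, 17.7, 36.7 and 33.2 CPM.

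Irf4, the factor of cDC2 that also drives plasma cell formation, had 107, 64, 184, 106 and 297 UMIs in C1q-low barcodes, at 33.3, 4.61, 14.2, 92.0 and 201 CPM. Over the 5 libraries, 52.0% of them were in the B cell part and 35.1% in the T cell part. Counted without the split, barcodes with Mzb1, a chaperone of antibody-secreting cells, held 56.1%, 9.38%, 17.9%, 77.4% and 94.6% of the gate's Irf4 UMIs. The lowest shares with Mzb1 were thus those of day 7, where barcodes with at least 2 Cd3 UMIs held 62.5% and 78.8%. In C1q-high barcodes the level was 4.75, 5.83, 10.7, 1.44 and 31.4 CPM, and 93.0% of the 185 UMIs of L-fuc day 21 lay in barcodes with Mzb1. Tumor cells were at most at 0.541 CPM.

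Flt3 stood higher in C1q-low than in C1q-high barcodes in every library. It had 25, 50, 100, 31 and 21 UMIs in C1q-low barcodes against 15, 20, 27, 1 and 19 in C1q-high. The levels were 7.79 (5.04 to 11.5), 3.60 (2.68 to 4.75), 7.73 (6.29 to 9.40), 26.9 (18.3 to 38.2) and 14.2 CPM (8.81 to 21.7) in C1q-low and 3.39, 1.88, 1.77, 0.144 and 3.22 CPM in C1q-high. C1q-low was higher by 2.30, 1.92, 4.36, 187 and 4.42 times, and the 187 rests on the single C1q-high UMI of control day 21. Per 100 Batf3 UMIs there were 72.5 Flt3 UMIs in C1q-low and 4.58 in C1q-high barcodes.

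Zbtb46, a zinc finger repressor, behaved unlike the other nine, since 64.7% of its 1709 UMIs were in tumor cells, against at most 12.4% for the others and 55.8% for all genes together. Its tumor cell level was 8.51 (6.05 to 11.6), 7.97 (7.34 to 8.65), 7.70 (6.90 to 8.58), 8.93 (7.24 to 10.9) and 8.39 CPM (6.44 to 10.8), with intervals that all overlapped. In C1q-low barcodes it was 6.85, 8.72, 6.26, 22.6 and 5.42 CPM, and there 53.1% of the UMIs lay in the Sox10 part, at 8.58 CPM. Zbtb46-positive tumor cells had no Flt3 UMI in any library, 0 to 1.79% of them had Pecam1 and none had Cdh5, the endothelial genes. Zbtb46-negative tumor cells had Flt3 in 0 to 0.433%, Pecam1 in 0.433% to 1.51% and Cdh5 in 0 to 0.0237%. These genes were thus rare in the whole gate, and their absence cannot place the source of Zbtb46. The Zbtb46-positive tumor cells were deeper than the negative ones, with median UMIs of 20290.5, 8983, 17997, 25357 and 30389.5 against 16369, 7310, 13497, 21340.5 and 19484. The tumor cell gate held only barcodes without Ptprc. Whether the Zbtb46 UMIs of C1q-low barcodes with Sox10 came from tumor cell RNA in the same droplet was not tested.

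Itgae, the CD103 chain, had 127, 121, 278, 56 and 36 UMIs in C1q-low barcodes, at 39.6, 8.72, 21.5, 48.6 and 24.4 CPM, and 51.8% of them lay in the T cell part and 9.55% in barcodes with 1 Cd3 UMI. In the T cell gate the level was 50.6 (43.7 to 58.2), 21.6 (18.8 to 24.7), 25.4 (22.9 to 28.0), 19.7 (9.86 to 35.3) and 26.0 CPM (17.1 to 37.8). Control day 0 was the highest, and the other four had overlapping intervals. In the remaining C1q-low barcodes, which had no Cd3 UMI, Itgae had 13, 9, 30, 37 and 25 UMIs, at 30.9 CPM over the libraries, and in tumor cells it was at 0.677 to 1.55 CPM.

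Siglech, the inhibitory lectin of pDC, was highest at day 7. It had 13, 402, 472, 8 and 0 UMIs in 5, 96, 52, 2 and 0 C1q-low barcodes, at 4.05 (2.16 to 6.92), 29.0 (26.2 to 32.0), 36.5 (33.3 to 39.9), 6.94 (3.00 to 13.7) and 0 CPM. Of the 8 UMIs in control day 21, 87.5% came from 1 barcode. For the 0 of 133 in L-fuc day 21, a floor of 3 counts stands at a share of 2.26%, which is not an exact interval. The C1q-high level was also highest at day 7, with 3.62, 10.2, 13.1, 1.15 and 1.19 CPM. Tumor cells had 0, 73, 12, 0 and 0 UMIs.

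**Figure D1:**
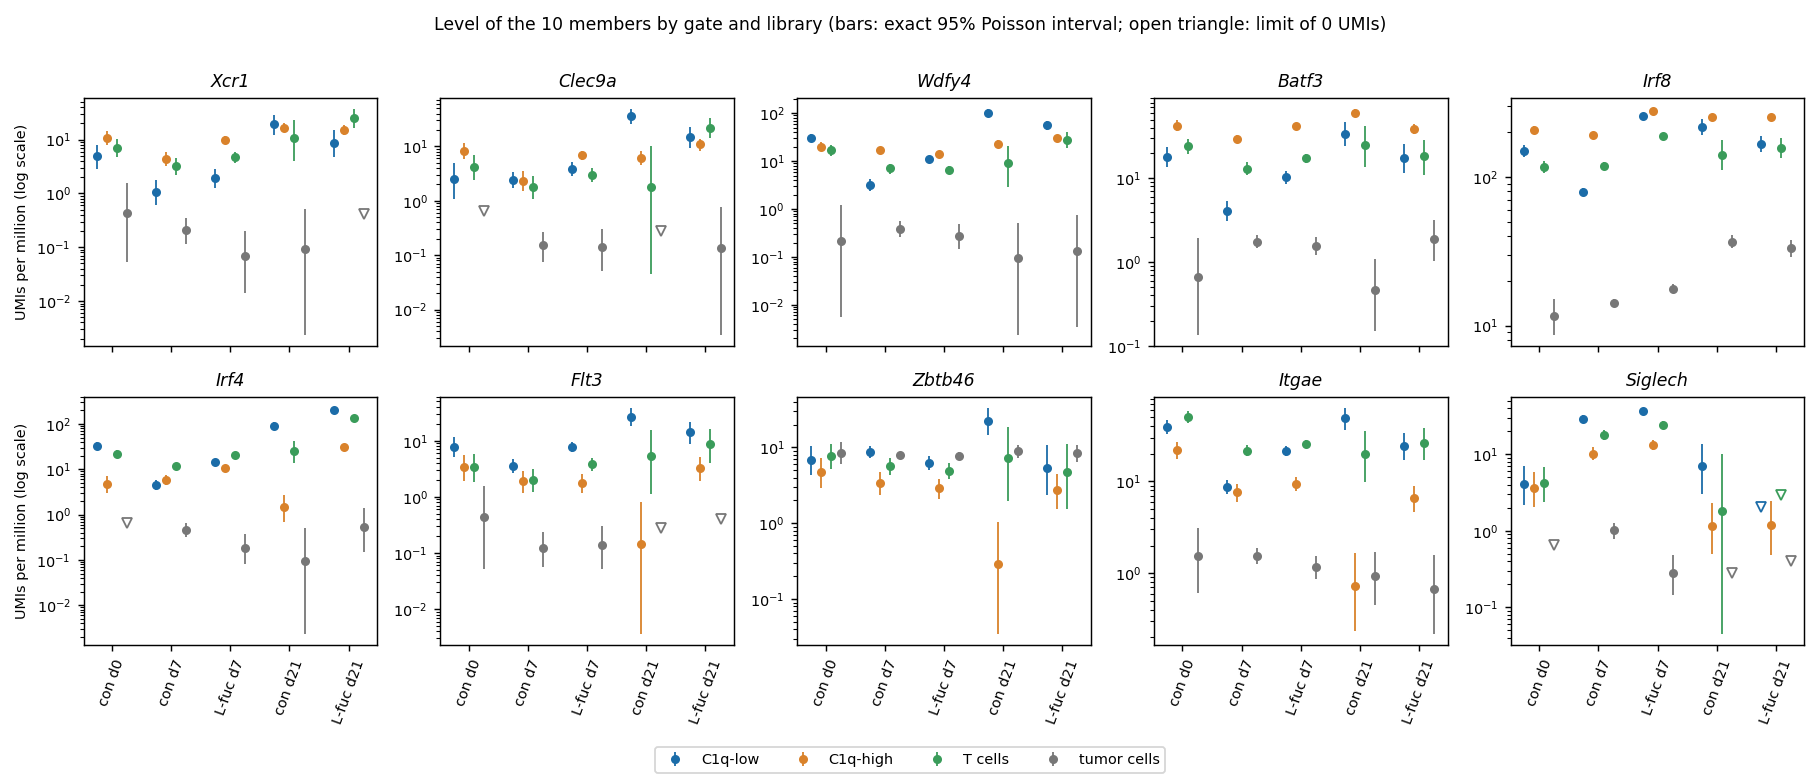
Level of each of the 10 genes (CPM, log axis) by library, with 1 point for each gate and bars for the exact 95% Poisson interval. Here con is control, d is day, and open triangles stand at a floor of 3 counts where no UMI was found. Zbtb46 is the gene whose tumor cell points lie level with or above most immune points, Siglech stands highest at day 7, and Clec9a and Xcr1 lie near the bottom in tumor cells.

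**Figure D2:**
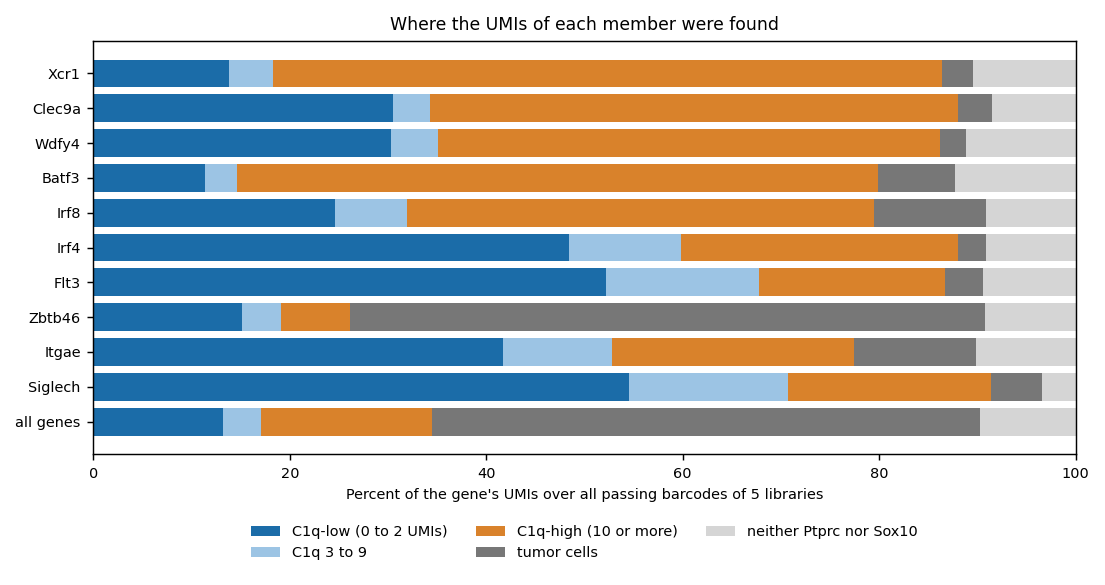
Percentage of each gene's UMIs, summed over the 5 libraries, that lay in each class of barcodes (stacked bars, total 100%). Zbtb46 has 64.7% in tumor cells, Flt3 and Siglech have 52.2% and 54.6% in C1q-low barcodes, and Xcr1 and Batf3 have 68.0% and 65.3% in C1q-high barcodes.

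Set against C1q-high, the C1q-low level was higher in all 5 libraries for Flt3, Zbtb46 and Itgae and lower in all 5 for Batf3 and Irf8. Batf3 was lower only in control day 7 once lymphocytes and Sox10 were left out of C1q-low, as given above. The members of the higher group depended on the barcodes kept: without lymphocytes Itgae dropped out, after thinning Zbtb46 dropped out and Irf4 came in, and without lymphocytes and mixed barcodes Irf8 was higher in all 5 beside Flt3, Zbtb46 and Itgae. Flt3 was higher in all 5 under each of these. Counting genes that differed by at least 2-fold, C1q-low was higher for 2, 2, 4, 7 and 4 of the 10 genes (of 9 tested in L-fuc day 21) and lower for 3, 4, 2, 0 and 1. Over all genes with at least 10 UMIs, 21.3%, 17.6%, 18.9%, 25.8% and 16.4% were higher by that much and 10.9%, 10.2%, 7.58%, 10.2% and 13.1% lower. The median log2 ratio of the 10 genes was 0.35, -0.15, 0.15, 2.56 and 0.91, beside 0.32, 0.35, 0.40, 0.35 and 0.16 for all genes. Control day 21 was the library in which the set lay farthest toward C1q-low. T cell markers moved with this comparison too, as 26.0%, 26.1%, 33.1%, 2.08% and 3.53% of C1q-high barcodes had at least 2 Cd3 UMIs, and 2.93%, 31.0%, 13.5%, 2.65% and 7.77% had Sox10; their part in the result was not tested.

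Of the C1q-low barcodes, 46.6% to 74.1% had none of the 10 genes. At least 3 of the 10 were found in 7.45%, 2.23%, 4.15%, 12.5% and 9.02% of C1q-low barcodes and in 19.8%, 9.22%, 13.8%, 18.9% and 31.1% of the deeper C1q-high barcodes, but in 0 to 0.377% of tumor cells; depth was not made equal for these shares. Xcr1 and Clec9a were found together in 19 C1q-low barcodes, where the product of their shares within each library gives 1.16, a ratio of 16.3. After thinning to 1000 UMIs it was 5 barcodes against 0.210. In C1q-high the pair was found in 39 barcodes against 13.5, a ratio of 2.90. Of the 7 Xcr1-positive C1q-low barcodes of control day 21, 6 had Clec9a and 7 had Flt3.

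Pairs with Flt3 and Siglech separated the genes further. Flt3 and Siglech shared 60 C1q-low barcodes where 3.19 are given by the product (ratio 18.8), Clec9a and Flt3 shared 46 against 3.07 (15.0), and Clec9a and Siglech shared 35 against 2.05 (17.1). After thinning these were 8 against 0.512, 5 against 0.253 and 9 against 0.444. Xcr1 and Siglech shared none, against 0.917. Clec9a thus marked barcodes of both kinds at day 7, since Siglech was in 59.3% of the Clec9a-positive C1q-low barcodes of control day 7 and 52.9% of those of L-fuc day 7, but in 1 of 13 in control day 21. Clec9a and Irf4 were found together in 6 barcodes against 6.77. In both libraries of day 7, 24 of the 45 pairs were at or above 2 times the product. No matching share over other gene pairs was computed, so this count cannot be called particular to these genes. In C1q-high barcodes Flt3 with Siglech had the highest ratio again, with 18 barcodes against 0.789 (22.8), whereas Irf8 with Zbtb46 was at 0.999.

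**Figure D3:**
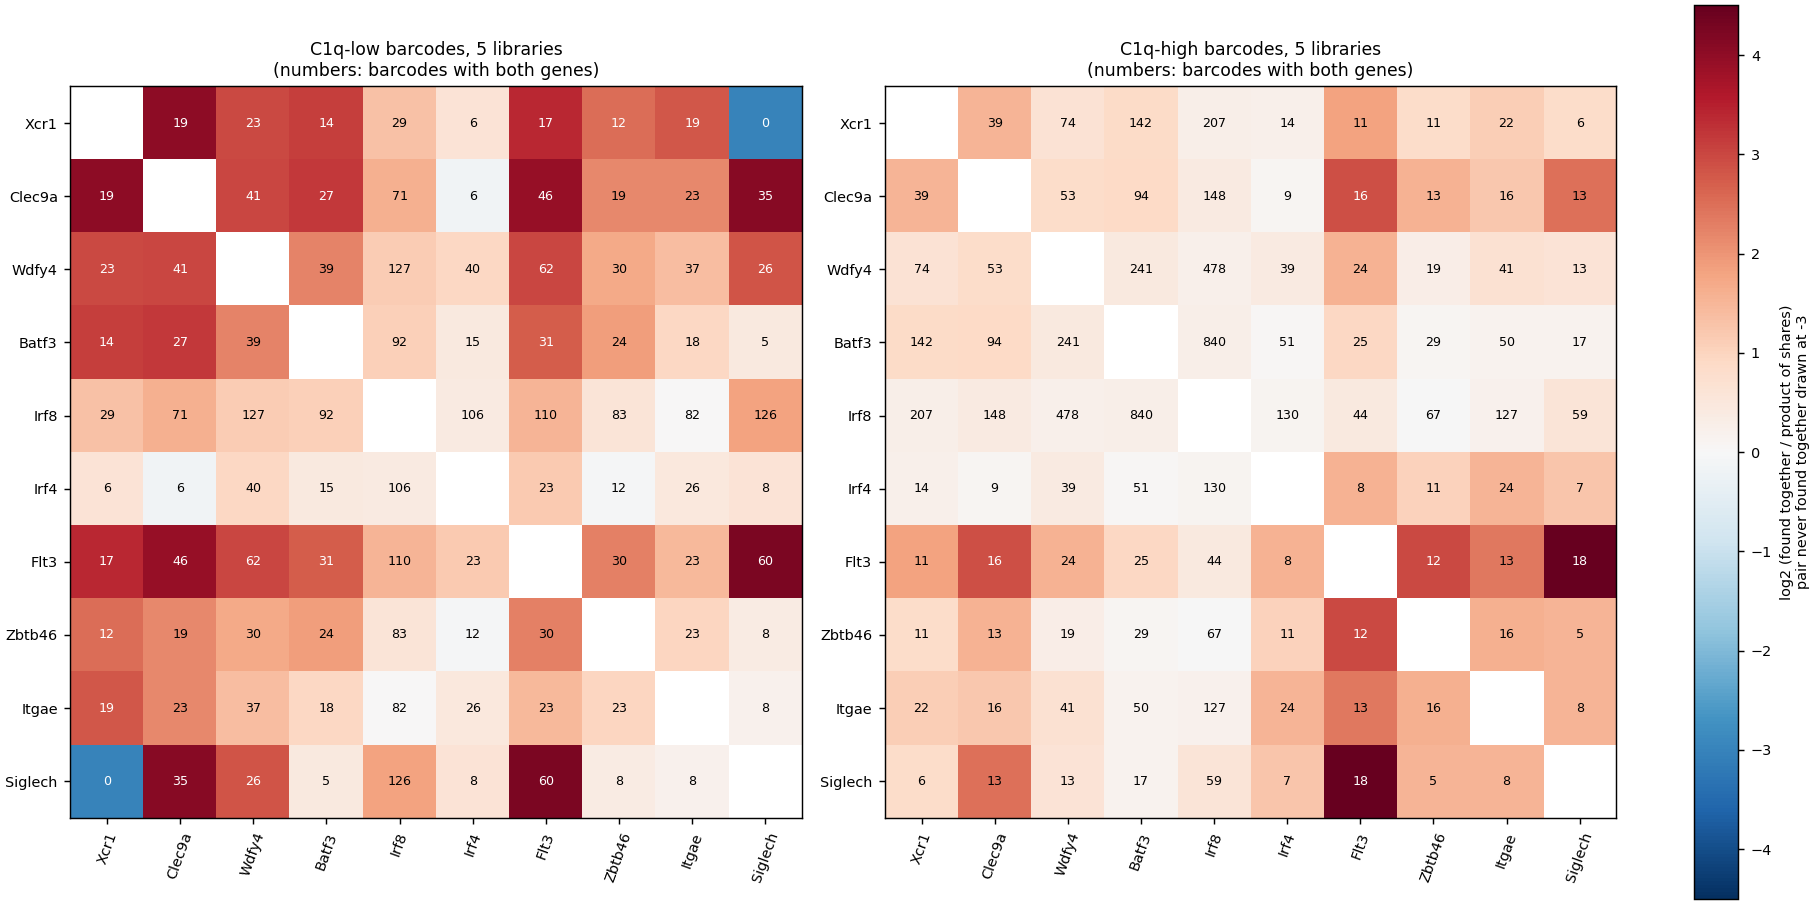
Log2 of the number of barcodes in which both genes of a pair were found over the number given by the product of their shares, summed over libraries, for C1q-low and C1q-high barcodes; the figures in the squares are barcodes with both genes. C1q-low holds the dark squares of Flt3, Clec9a, Siglech and Xcr1, and the never-shared pair Xcr1 with Siglech is drawn at -3.

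The genes found with each marker in C1q-low barcodes were read from fixed lists, as levels in marker-positive over marker-negative barcodes pooled over the libraries. No share over all genes was computed for these comparisons, so the counts of list genes have none beside them. The minimum of 10 UMIs covered positive and negative barcodes together, so a gene counted as lower can rest on few UMIs. The 42 Xcr1-positive barcodes had 10 of 12 other cDC1 genes at least 2-fold higher (median log2 ratio 3.99) and none lower. Naaa, a lysosomal amidase, stood at 687 against 16.2 CPM and Sept3, a septin, at 159 against 0.899. All 7 class II genes were higher (median 2.72), 8 of 12 pDC genes were lower (-1.88) and 5 of 7 macrophage markers were lower, with Apoe at 36.4 against 206 CPM. In C1q-high barcodes the same comparison gave a weaker profile. There 5 of 12 cDC1 genes were higher and 1 lower (median 0.69), no class II gene differed by 2-fold (median -0.44), Naaa was at 82.2 against 47.1 CPM and Sept3 at 5.63 against 0.210. Of the 248 Xcr1-positive C1q-high barcodes, 81.5% had Csf1r, the macrophage growth factor receptor, and 53.2% had Naaa.

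Clec9a-positive C1q-low barcodes were higher for 9 of 12 cDC1 genes (median 3.45), 10 of 12 pDC genes (2.88) and 8 of 11 genes of cDC2 and monocyte-derived cells (1.79), with Naaa at 432 against 15.2 CPM and Cox6a2, a muscle and pDC subunit of cytochrome oxidase, at 615 against 28.3. In Siglech-positive barcodes 10 of 12 pDC genes were higher (median 4.33) and 8 of 11 genes of cDC2 and monocyte-derived cells (2.53), among them Cox6a2 at 1267 against 1.49 CPM and Ccr9, a homing receptor of pDC, at 350 against 1.45. The cDC1 list had 2 genes higher and 1 lower of 12 there (0.01), with Naaa at 18.7 against 24.3 CPM. Siglech-positive C1q-high barcodes had the same lead, with 11 of 12 pDC genes higher and Cox6a2 at 545 against 3.45 CPM. Flt3-positive C1q-low barcodes spanned the lists: 9 of 12 cDC1, 9 of 11 cDC2, 11 of 12 pDC and 4 of 9 mature dendritic cell genes were higher. Cd209a, a lectin of cDC2 and monocyte-derived cells, was at 192 against 3.54 CPM in them and Ccr7, the lymph node homing receptor of mature cells, at 248 against 58.4.

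The transcription factors gave broader profiles. Batf3-positive C1q-low barcodes had 8 of 12 cDC1 genes higher (median 2.35) but also 4 of 7 macrophage markers, with Csf1r at 95.8 against 11.5 CPM. For Irf8, 7 of 12 pDC genes (2.18), 3 of 3 NK markers (2.25) and 4 of 4 B cell markers (1.73) were higher, and 5 of 12 cDC1 genes (0.85). Irf4-positive barcodes had 4 of 4 B cell markers higher (2.51), 2 of 11 cDC2 genes (0.24), and 5 of 12 cDC1 genes lower. Wdfy4-positive barcodes had 8 of 12 cDC1 genes (3.03) and 4 of 4 B cell markers (3.09) higher. Zbtb46-positive barcodes had 8 of 12 cDC1 genes higher (1.42) and no tumor marker past 2-fold, although 56.2% of them had Sox10 against 29.3% of Zbtb46-negative ones. Itgae-positive barcodes had 7 of 9 T cell markers (1.27) and 7 of 12 cDC1 genes (1.55) higher, as were 2 of 3 mast cell markers (2.84).

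Without lists, the 5 genes most like each member were ranked by the lowest log2 ratio of positive over negative C1q-low barcodes in any library with at least 10 positives. For Clec9a, over 3 libraries, they were Mycl (5.01), Tnni2 (5.01), Wdfy4 (4.31), Pkib (4.24) and Ctnnd2 (4.06). Wdfy4 in turn led with Clec9a (3.45) and Flt3 (2.69) over all 5 libraries, and Flt3 with Clec9a (4.09) and Tbc1d8 (3.80) over 4. Siglech led with Cox6a2 (9.28), Klk1 (8.62) and Ccr9 (8.39) over the libraries of day 7, Irf4 with Mzb1 (1.46) and Xbp1 (1.19), the secretory pathway factor of plasma cells, and Itgae with Foxp3 (2.88) and Ikzf2 (1.89), both factors of regulatory T cells. For Zbtb46 no gene passed 1 log2 unit in every library, with Anln (0.83) and Timp3 (0.80) first. Xcr1 (Cst3, 2.97) rested on 2 libraries and 26 barcodes, Batf3 led with Ptpro (2.97) and Irf8 with Mpeg1 (1.22).

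In T cells, Itgae followed the Foxp3-positive subset. Foxp3, the factor of regulatory T cells, was found in 70, 157, 165, 6 and 5 T cells, and 62.9% (50.5 to 74.1), 24.8% (18.3 to 32.4), 35.2% (27.9 to 43.0), 33.3% (4.33 to 77.7) and 40.0% (5.27 to 85.3) of these had Itgae. Among T cells with Cd8a or Cd8b1 the share was 17.3%, 9.62%, 12.2%, 14.3% and 25.0%, and among those with Cd4 and no Foxp3 it was 5.00%, 6.40%, 3.46%, 4.35% and 0. At day 0 and day 7 the intervals of the Foxp3 subset lay above the other subsets, and at day 21 the 6 and 5 Foxp3-positive cells were too few to place it. C1q-high barcodes with at least 2 Cd3 UMIs had Itgae in 38.0%, 12.6%, 13.1%, 0 and 30.0%, and those without any Cd3 UMI in 0.639% to 2.99%. Over all T cells the L-fuc day 7 share was 1.01 times that of control day 7 (0.805 to 1.26), with Sox10 in 13.5% and 35.3% of them. Of the T cells, 79.2%, 51.8%, 57.4%, 77.6% and 44.0% had a T cell receptor contig in the matched receptor libraries.

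**Figure D4:**
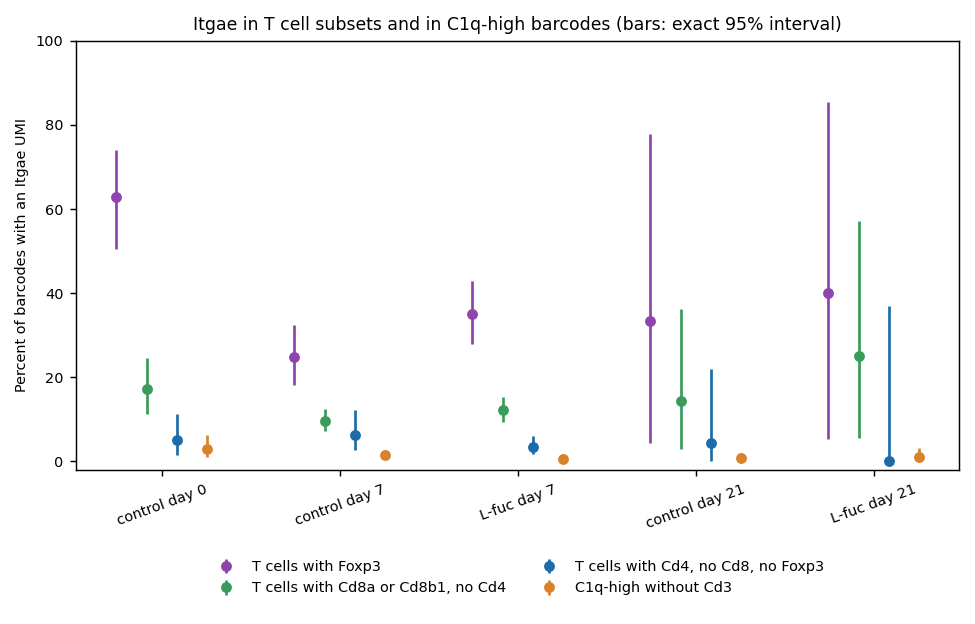
Percentage of barcodes with an Itgae UMI in T cell subsets and in C1q-high barcodes without Cd3, by library, with exact 95% binomial intervals. The Foxp3-positive subset is the highest at day 0 and day 7, at 62.9%, 24.8% and 35.2%, and its intervals at day 21 span most of the axis.

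At day 7, L-fuc was compared with control first in C1q-low barcodes. Here 6 of the 10 genes were at least 2-fold higher in L-fuc and none was 2-fold lower, where 12.1% of 14756 genes were higher and 8.29% lower by that much. The 6 were Wdfy4 at 3.41 times the control level (2.42 to 4.88), Irf8 at 3.22 (3.01 to 3.45), Irf4 at 3.08 (2.31 to 4.16), Batf3 at 2.50 (1.82 to 3.48), Itgae at 2.46 (1.98 to 3.08) and Flt3 at 2.14 (1.51 to 3.07). Xcr1 was at 1.79 (0.906 to 3.65), Clec9a at 1.58 (1.00 to 2.51), Siglech at 1.26 (1.10 to 1.44) and Zbtb46 at 0.718 (0.535 to 0.959). The median log2 ratio of the set was 1.19, beside -0.14 for all genes. Thinned to 1000 UMIs per barcode, 2 of the genes remained past 2-fold higher, and Batf3 and Flt3 turned to log2 ratios of -0.44. No share over all genes was computed after thinning.

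The makeup of the gate differed between these libraries. Sox10 was in 18.8% of L-fuc and 47.0% of control C1q-low barcodes and lymphocyte markers in 71.9% and 43.2%, T cell markers were higher in L-fuc for 7 of 9 genes (median 1.80), and so were 3 of 3 NK markers (2.32), 3 of 3 neutrophil markers (3.10) and 3 of 3 mast cell markers (3.71). Without Sox10-positive barcodes the ratios were 2.07 for Wdfy4 (1.34 to 3.31), 1.89 for Irf8 (1.74 to 2.04), 1.89 for Irf4, 1.62 for Itgae, 1.49 for Batf3 and 1.13 for Flt3 (0.764 to 1.71), and below 1 for Clec9a (0.828), Zbtb46 (0.808), Siglech (0.643) and Xcr1 (0.641). Of the 6 genes, 1 was then past 2-fold, and no share over all genes was computed for this subset. Without lymphocytes and Sox10 together, 345 L-fuc and 661 control barcodes remained and 6 of 9 tested genes were again at least 2-fold higher, where 10.2% of genes were higher and 21.6% lower. They were Itgae (4.85, from 30 against 9 UMIs), Wdfy4 (4.81, 2.71 to 9.02), Batf3 (3.78, 2.22 to 6.68), Flt3 (2.97, 1.79 to 5.06), Clec9a (2.68, 1.31 to 5.74) and Irf8 (2.31, 2.03 to 2.64). Siglech was at 1.53 (1.25 to 1.89), Irf4 had 5 UMIs in each library and Xcr1 had 3 against 5. In this subset 3 of 3 mast cell markers (median 4.33), 3 of 3 neutrophil markers (2.58), 3 of 4 monocyte markers (1.51) and 3 of 7 macrophage markers (0.74) were also higher in L-fuc. How far the makeup of the gate accounts for the ratios was not tested beyond these values.

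The share of C1q-low barcodes with Xcr1 or Clec9a was 1.66% (0.718 to 3.24), 1.30% (0.906 to 1.80), 2.22% (1.63 to 2.97), 8.75% (4.87 to 14.2) and 4.51% (1.67 to 9.56), from 8, 35, 45, 14 and 6 barcodes. L-fuc over control was 1.71 at day 7 (1.08 to 2.74), 0.882 after thinning and 2.83 without lymphocytes. The background in tumor cells was 0.207% to 0.377%. Of the barcodes with either gene, 62.5%, 60.0%, 84.4%, 92.9% and 83.3% had Irf8.

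In the other gates of day 7, fewer of the genes passed 2-fold. In C1q-high, Clec9a was at 2.90 times control (1.86 to 4.69; 104 against 25 UMIs) and Xcr1 at 2.21 (1.58 to 3.14; 149 against 47), Batf3 was at 1.41 (1.23 to 1.62), and the other 7 ranged from 0.835 for Wdfy4 to 1.84 for Irf4. This makes 2 higher and 0 lower of 10, where 4.40% of genes were higher and 7.88% lower, with Sox10 in 13.5% of L-fuc and 31.0% of control barcodes. Of 11 other cDC1 genes, 0 were 2-fold higher and 0 lower in this gate (median log2 ratio 0.04). NK markers (3 of 3, median 1.52) and mast cell markers (3 of 3, 2.93) were higher and 2 of 3 tumor markers lower. Their part in the result was not tested. In T cells 0 of 10 passed in either direction (5.05% higher and 8.62% lower of all genes), with Irf8 at 1.59 (1.48 to 1.70). The level of Zbtb46 in tumor cells was 0.966 times control (0.841 to 1.11).

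The partners of these genes were read from the same fixed lists. Of 9 genes of the Flt3 and CSF axis, 6 were higher in L-fuc day 7 C1q-low barcodes and 0 lower (median log2 ratio 1.58): Csf2, the gene for GM-CSF, with 825 against 130 UMIs (2.76), Xcl1, the Xcr1 ligand, with 3233 against 615 (2.49), Flt3l, the Flt3 ligand, with 504 against 172 (1.65), and Csf2ra, Kit and Csf2rb at 1.59, 1.58 and 1.33. Of 12 other cDC1 genes 5 were higher and 0 lower (0.21), while without lymphocytes and Sox10 4 were higher and 3 lower of 10 (0.22). Of 11 cDC2 genes 3 and 0 (0.42), of 12 pDC genes 2 and 0 (0.55), and of 12 regulators 5 and 0 (0.52), among them Id2 (1.38) and Nfil3 (1.08), which act in cDC1 and NK cells alike. No class II gene of 7 passed 2-fold in the full gate (0.35). Without lymphocytes and Sox10, 3 of 7 class II genes were higher and 0 lower (0.92). Of 11 cDC2 genes 5 were higher and 1 lower in that subset (0.91), where 10.2% of all genes were higher and 21.6% lower. NK cells and mast cells, whose markers differed as above, also express several genes of these lists, and their part in the result was not tested.

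At day 21 the C1q-low gates were small, and the direction of most of the genes was the other way. Irf4 was at 2.19 times control (1.75 to 2.76), and the rest of the tested genes were below it: Irf8 at 0.768 (0.641 to 0.920), Wdfy4 at 0.554 (0.413 to 0.740), Flt3 at 0.529 (0.289 to 0.950), Batf3 at 0.520 (0.304 to 0.877), Itgae at 0.502 (0.321 to 0.776), Xcr1 at 0.461 (0.213 to 0.957), Clec9a at 0.419 (0.238 to 0.720) and Zbtb46 at 0.240 (0.0940 to 0.546). Siglech had 0 against 8 UMIs. The median log2 ratio was -0.92, beside -0.22 for all genes. In the same gate 6 of 9 T cell markers (median -1.29), 3 of 3 mast cell markers (-5.57) and 3 of 3 tumor markers (-1.15) were lower in L-fuc and 2 of 3 NK markers higher (1.41); their part in the result was not tested. By the 2-fold count, 1 was higher and 3 lower of 9, where 4.09% of genes were higher and 12.0% lower. With TMM or median-of-ratios scaling 1 was lower, and no matching share over all genes was computed.

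The Irf4 excess of L-fuc day 21 went with B lineage genes, as barcodes with at least 2 Cd79 UMIs held 90.2% of its UMIs there and 77.4% in control. Without lymphocytes and Sox10, which left 53 and 73 barcodes, Irf4 had 10 UMIs in each library and a ratio of 1.01, Irf8 was at 0.951, Clec9a at 0.556 (0.315 to 0.959), Wdfy4 at 0.576 (0.414 to 0.797) and Zbtb46 at 0.276 (0.0915 to 0.701). Of 9 genes 0 were then 2-fold higher and 1 lower (7.07% and 13.7% of all genes). In the full C1q-low gate 0 of 11 other cDC1 genes were higher and 3 lower (median -0.36). Of 10 cDC2 genes 3 were higher and 1 lower there, with Cd209a at a log2 ratio of 2.86, and Csf2 had 2 against 325 UMIs. Without lymphocytes and Sox10, 0 of 9 other cDC1 genes were higher and 0 lower (median -0.07). Of 10 cDC2 genes 3 were higher and 2 lower in that subset.

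**Figure D5:**
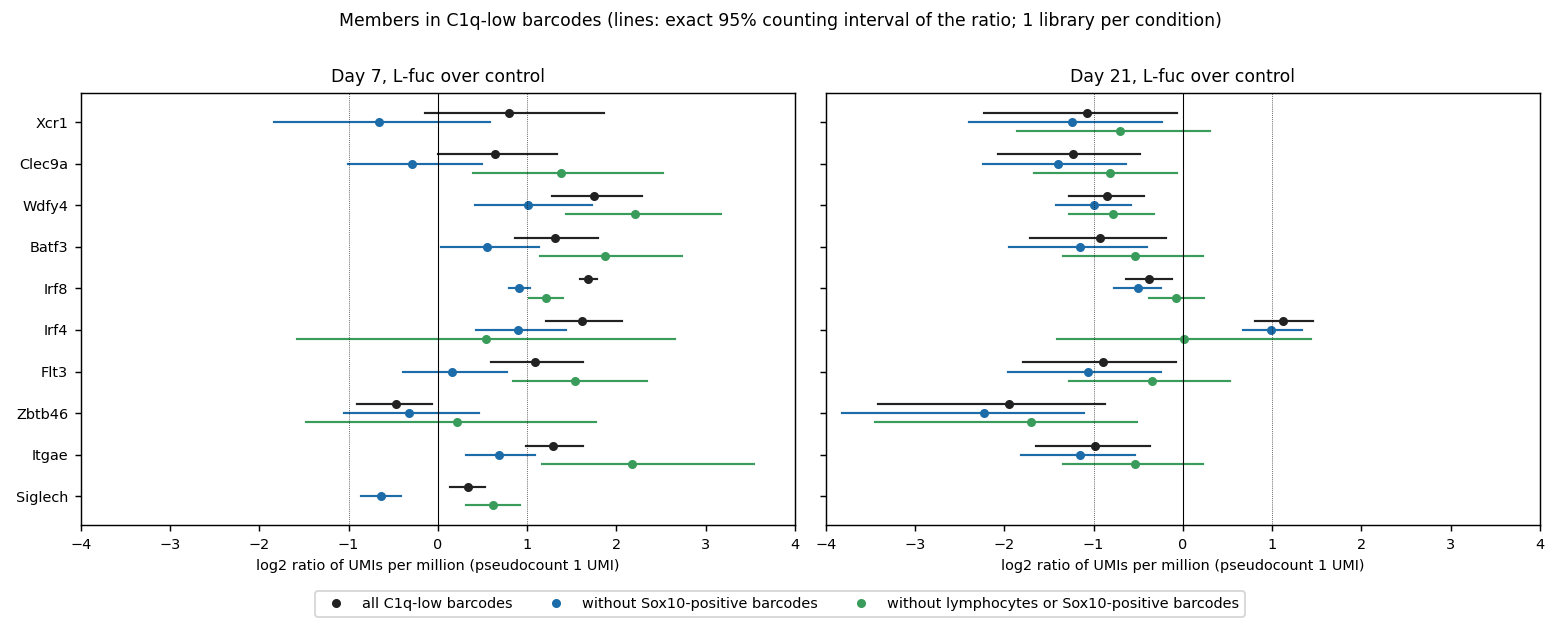
Log2 ratio of L-fuc over control in C1q-low barcodes at day 7 and day 21 for each gene, in all C1q-low barcodes, without Sox10-positive ones, and without lymphocytes or Sox10-positive ones, with exact 95% intervals. At day 7 the points of Wdfy4 and Irf8 lie above 0 in all 3 versions while those of Clec9a, Xcr1 and Siglech lie on both sides of it, and at day 21 Zbtb46, Clec9a and Wdfy4 lie below 0 in all 3.

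In C1q-high barcodes of day 21, 4 of the 10 genes were at least 2-fold higher in L-fuc and 0 lower, where 6.34% of genes were higher and 1.82% lower. These were Flt3 at 22.3 (3.55 to 928; 19 against 1 UMIs), Irf4 at 21.7 (11.6 to 46.1; 185 against 10), Zbtb46 at 9.40 (16 against 2) and Itgae at 9.17 (3.61 to 29.8; 39 against 5), none of them an abundant gene in the control gate. B cell markers were higher for 3 of 4 genes (median 3.21) and monocyte markers for 3 of 4 (1.86) in the same comparison; their part in the result was not tested. Clec9a was at 1.75 (1.17 to 2.64), Wdfy4 at 1.30, Irf8 at 0.998, Xcr1 at 0.902 and Batf3 at 0.638 (0.541 to 0.751). In T cells, 67 in control and 50 in L-fuc, 4 of 8 tested genes were higher and 0 lower (9.78% and 10.6% of all genes), with Irf4 at 5.28 (3.04 to 9.92) and Clec9a at 12.3, from 23 against 1 UMIs. Beside this, 4 of 4 B cell markers were higher (median 3.70) and 7 of 9 T cell markers lower (-1.58), and their part in the result was not tested. Xcr1 or Clec9a was found in 3.14%, 2.34%, 3.79%, 5.97% and 6.00% of T cells over the 5 libraries, so the gate also held cDC1 transcripts.

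Along the control libraries, the C1q-low level of Siglech at day 7 was 7.16 times that of day 0 (4.14 to 13.6) while Wdfy4 was at 0.106, Irf4 at 0.138, Xcr1 at 0.217, Itgae at 0.221 and Batf3 at 0.227. Without Sox10-positive barcodes Siglech was at 19.0, Clec9a at 2.65 rather than 0.984, and Wdfy4 at 0.221. Without lymphocytes and Sox10, Xcr1 had 5 UMIs at day 7 and none at day 0, so its direction turned, Clec9a was at 1.73 (0.391 to 15.8), Wdfy4 at 0.177 and Siglech at 4.89 (2.60 to 10.4). At day 21 the cDC1 genes were high and Siglech low. Wdfy4 was at 31.3 times its day 7 level, Xcr1 at 17.7, Clec9a at 14.5, Batf3 at 8.24 and Flt3 at 7.47, and Siglech at 0.240. Without lymphocytes and Sox10 the values were 41.0 for Wdfy4 (24.1 to 74.2), 26.9 for Xcr1, 18.8 for Clec9a (9.87 to 38.4), 15.0 for Zbtb46, 11.3 for Batf3, 6.64 for Flt3 and 0.233 for Siglech. These control libraries also served the L-fuc comparisons of the same days.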

How the data were processed

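Per the labels, the submitters processed the reads with Cell Ranger 3.0 and Seurat 4.0 on mm10, while the matrix headers name Cell Ranger 7.1.0. The deposited matrices hold UMI counts per gene and barcode, whole numbers without normalization. The receptor libraries' contig tables were used only to find barcodes with a contig. The 5 pooled libraries were analysed with Python 3.11.15, pandas 2.3.3 and scipy 1.17.1, and edgeR 4.0.16 in R 4.3.3 gave TMM factors for a scaling alternative only. With 1 library per condition no test was run. Doublets were not called.

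Ratios across genes used those with at least 10 UMIs over both groups and log2 ratios a pseudocount of 1 UMI; ratios printed with an interval had none. Marker-positive against marker-negative ratios added 2 UMIs split by depth. Thinning drew 1000 UMIs per barcode and left out shallower ones. Lymphocytes had a Cd3 UMI, at least 2 Cd79a and Cd79b UMIs, or an Ncr1 or Klrb1c UMI. The named genes were the 10 members, the genes of the lists and, for each member, the 5 most like it with a UMI in at least 20% and at least 10 of the positive barcodes. Members and lists were chosen with earlier results of these data known.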

Additional observations from a re-analysis of the deposited data

Results flagged for a closer look

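For 6 of the genes in C1q-low barcodes, the L-fuc over control ratio lay above 1 at day 7 and below 1 at day 21, with both intervals clear of 1 where both libraries had UMIs. The share of all genes that turned in this way was not computed, so the count cannot be called particular to these genes. The day 7 ratio divided by the day 21 ratio was 6.15 for Wdfy4, 4.91 for Itgae, 4.81 for Batf3, 4.20 for Irf8 and 4.06 for Flt3. For Siglech it was 4.30 with a floor of 3 counts, since the L-fuc day 21 library had no UMI. The Siglech counts of day 7 were 472 UMIs in 52 of 2023 L-fuc barcodes against 402 in 96 of 2695 control ones. Over the processing alternatives, day 7 log2 ratios ran from -0.64 to 0.87 for Siglech, -0.44 to 1.90 for Batf3 and -0.44 to 1.83 for Flt3. At day 21 they ran from -0.51 to 0.29 for Irf8 and -1.06 to 0.045 for Flt3. Wdfy4 and Itgae kept both directions. Batf3 in C1q-high barcodes also lay above 1 at day 7 and below 1 at day 21, with 1.41, 0.638 and 2.22 between them. The difference between the days was not tested, since each value is a single pooled library.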

How the results depend on the processing

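The number of genes at least 2-fold higher in C1q-low at day 7 was 6, with 2 after thinning to 1000 UMIs and 1 without mixed barcodes (Ptprc with Sox10, or Cd3 with high C1q). Thinning turned the day 7 log2 ratios of Batf3 and Flt3 to -0.44 each. At day 21 the number higher was 1, and 0 after thinning, without lymphocytes, without mixed barcodes, without both or without barcode sequences seen in more than 1 library. The number lower at day 21 was 3, with 1 without lymphocytes, 1 without lymphocytes and mixed barcodes, 6 without mixed barcodes, 5 without the 5% of barcodes with the most UMIs, and 1 with TMM or median-of-ratios scaling. The day 7 ratio of Xcr1 or Clec9a shares (1.71) was 0.882 after thinning and 2.83 without lymphocytes. The cause of these shifts was not tested. Shares over all genes were computed only for the gates as reported and for C1q-low without lymphocytes or Sox10, so the other counts have no such share beside them. No gene was 2-fold lower at day 7 under any alternative run, and the Itgae share ratio in T cells kept to 0.928 to 1.10. Of the 45 pairs, 16 to 28 were at 2 times the product or more in both libraries of day 7 (24 as reported), without a share over other gene pairs. The setting without lymphocytes and mixed barcodes together was chosen after seeing the data. No paired analysis was possible because the libraries are pools without replicate numbers to pair, and no library could be left out. Depth limits Xcr1 and Clec9a, which rested on 4 to 34 C1q-low barcodes per library.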
